A study of Mus musculus with 6 samples.

Results

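Replication-dependent histone genes were examined by RNA-seq in EGFP+ cells that had been sorted from mouse ventricles. They were taken as all rows of the deposited table whose symbol begins with Hist1h, Hist2h, Hist3h or Hist4h and whose protein class is not pseudogene, which gave 61 of 28987 genes. Another 2 rows with such symbols, *Hist1h2aj* and *Hist3h2bb-ps*, are annotated as pseudogenes and were left out. The 61 genes encode linker histone H1 (6 genes), and the core histones H2A (17), H2B (15), H3 (11) and H4 (12).

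Core histones form the protein spool around which DNA is wound in the nucleosome, and linker histone H1 binds where the DNA enters and leaves it. The replication-dependent genes lie in clusters of many copies, and their transcription rises as a cell enters S phase, when newly copied DNA has to be packaged. Their mRNAs are known for having no poly(A) tail. Instead they end just after a short hairpin, the stem-loop, which is bound by the protein SLBP. The cut that makes this end is placed with the help of U7 snRNA. Cells that have left the cell cycle use replacement histones, whose genes have introns and whose mRNAs carry a poly(A) tail. Some replication-dependent genes can also give rise to longer, polyadenylated transcripts in such cells.

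The libraries were 3 labelled control and 3 labelled Hsp47-deleted. All 6 came from mice with a MerCreMer cDNA (a tamoxifen-activated Cre recombinase) in the *Postn* locus and a Cre-dependent EGFP reporter, R26eGFP, in the *Rosa* locus. The Hsp47-deleted mice in addition carried Hsp47 flox/flox alleles, so the reporter and the deletion both depend on cells that have switched on *Postn*. The mice were C57BL/6 males. Both groups received tamoxifen by injection (100 mg/kg) and in chow (40 mg/kg), underwent transverse aortic constriction (TAC) at 8 to 10 weeks of age, and were sampled 4 weeks later. Whether a library came from 1 mouse or several is not given in the sources used here, so p-values measure the spread between these libraries. Control replicates 3 and 4 belong to 1 sequencing run (here the first run), and control replicate 2 and the 3 Hsp47-deleted replicates to another (the second run). The run number in the titles names a sequencing run, and whether sorting or amplification was also done separately is not stated. In both groups total RNA was amplified before library construction.

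Values are log2(value + 1) as deposited. The linear unit is not named, so whether it is per length is unknown, and levels are compared between libraries and not between genes. The number of reads behind a value is unknown. An entry of exactly 0 is written as listed at 0. *Serpinh1*, which encodes Hsp47, was listed at 6.28 and 6.10 in control replicates 3 and 4, at 7.60 in control replicate 2, and at 6.87, 6.67 and 6.66 in Hsp47-deleted replicates 1, 2 and 3. The targeted transcript was therefore not lower in the Hsp47-deleted libraries than in all controls (log2 fold change 0.072, limma, Benjamini-Hochberg (BH) adjusted p = 0.947), and it was lower by 0.87 than in control replicate 2. By Western blot, the paper reported efficient loss of Hsp47 protein in sorted EGFP+ cells. The listed values are per gene and do not show the loxP-targeted exon separately. The groups are called by their labels.

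The sequence of the 61 mRNAs was read from GENCODE release M21 of GRCm38 (mm10), in which all 61 genes had an entry, 55 by gene ID and 6 by symbol. By symbol, 50 of the genes belong to Hist1 on chromosome 13, 9 to Hist2 on chromosome 3 and 2 to Hist3 on chromosome 11. *Hist1h2al* starts at position 51202727, away from the other Hist1 genes, which lie between 21716422 and 23934851. In 55 of 61 genes every annotated transcript has 1 exon. The stem-loop pattern of histone mRNAs, 16 bases searched on the transcript strand with any base allowed at its variable stem and loop positions, was found in 41 of the 61 genes. It was found in 136 of all 21901 protein-coding genes (0.621%), of which 95 were not among the 61. The 41 genes carried 8 different forms of the hairpin, and the most frequent form was shared by 22 genes of the H1, H2A, H2B and H3 families. The forms below show what is constant and what varies. Capitals mark the 16 bases of the stem-loop, whose arms pair with each other, and the lower case bases are the flanks.

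Hist1h1e: ccaaaGGCTCTTTTCAGAGCCacccac
Hist2h2aa1: aaaaaGGCTCTTTTCAGAGCCacccac
Hist2h2ac: aaaaaGGCTCTTTTTAGAGCCaccaaa
Hist1h2bk: ccaaaGGCTCTTTTAAGAGCCactaaa
Hist1h3g: ttaaaGGCTCTTCTTAGAGCCacccat
Hist1h4d: ccaaaGGCCCTTTTCAGGGCCactacc
Hist1h4a: ccaaaGGCCCTTCTCAGGGCCgcccac
Hist1h4b: caaaaGGTCCTTTTCAGGACCactcac
Hist2h4: ctaacGGCCCTTTTTAGGGCCaaccac

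The arms of the stem differ between families. All H4 genes with the pattern had a stem that began GGCC or GGTC, whereas the H1, H2A, H2B and H3 genes with the pattern had GGCT. *Hist1h1e* and *Hist2h2aa1* share the most frequent hairpin. The loop also varied, as in *Hist2h2ac*, *Hist1h2bk* and *Hist1h3g*. *Hist1h4d*, *Hist1h4a* and *Hist1h4b* show 3 hairpins of the H4 family.

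The annotated transcripts differ in where they end relative to the hairpin. In 20 genes the transcript ends within 100 bases of it. In 21 genes a transcript continues further, as in *Hist1h1c* (840 bases past the hairpin), *Hist1h1e* (1153), *Hist1h4d* (770), *Hist2h4* (1257) and *Hist1h1d* (4884). In the other 20 genes no hairpin is in the annotated transcript, often because the model holds little beyond the coding sequence. A poly(A) signal (AATAAA) lies in the last 60 bases of an annotated transcript in 13 of the 61 genes. The median transcript length was 586 bases and the median GC content 57.9%.

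Promoters of 54 of the 61 genes were found in the RefSeq table (250 bases before to 50 after the start, GRCm38.p6). On either strand, TATAAA (the TATA box) was present in 63.0% of these promoters and in 13.6% of all 32851. CCAAT was present in 85.2% against 37.4%. It was in every matched promoter of the H1, H2A, H2B and H3 genes, and in 3 of the 11 H4 promoters. The octamer ATTTGCAT was present in 22.2% against 1.74%, in 7 of 16 H2A and 5 of 12 H2B promoters and in no H1, H3 or H4 promoter. None of the 3 motifs is contained in another. Among the genes are 8 head-to-head pairs of an H2A and an H2B gene whose starts lie within 500 bases of each other, so that 1 stretch of DNA serves as promoter for both. The promoters of 3 genes described below are printed with the matched motifs in capitals on the strand of the gene, where a match on the other strand appears as ATTGG or ATGCAAAT.

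Hist1h4d, chr13:23581318-23581617, + strand: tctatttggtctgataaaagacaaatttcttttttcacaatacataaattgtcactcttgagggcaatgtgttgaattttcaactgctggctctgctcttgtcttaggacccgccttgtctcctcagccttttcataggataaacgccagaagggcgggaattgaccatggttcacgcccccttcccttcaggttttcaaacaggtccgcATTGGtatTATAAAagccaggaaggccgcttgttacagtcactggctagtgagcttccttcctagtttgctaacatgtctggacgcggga
Hist1h1e, chr13:23622509-23622808, - strand: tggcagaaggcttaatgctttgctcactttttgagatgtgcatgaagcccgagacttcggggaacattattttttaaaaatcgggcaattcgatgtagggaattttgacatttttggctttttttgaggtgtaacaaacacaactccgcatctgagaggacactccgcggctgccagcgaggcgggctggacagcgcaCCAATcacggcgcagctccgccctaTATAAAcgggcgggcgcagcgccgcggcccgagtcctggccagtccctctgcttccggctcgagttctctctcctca
Hist2h2ac, chr3:96220831-96221130, - strand: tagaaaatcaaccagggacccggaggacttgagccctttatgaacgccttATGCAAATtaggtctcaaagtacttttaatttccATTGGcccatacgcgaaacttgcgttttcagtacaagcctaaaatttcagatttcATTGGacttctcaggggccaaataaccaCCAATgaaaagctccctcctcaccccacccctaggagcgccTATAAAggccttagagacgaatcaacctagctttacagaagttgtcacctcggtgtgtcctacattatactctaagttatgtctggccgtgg

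*Hist1h4d* was chosen because it had the highest listed value of the 61 genes, *Hist1h1e* because it had the highest value of the H1 genes, and *Hist2h2ac* because its promoter faces that of *Hist2h2be*, 239 bases away, which had different values. All 3 hold a TATA box and at least 1 CCAAT, and that of *Hist2h2ac* also holds the octamer.

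Summed over the 61 genes, the linear values came to 63.7 and 64.2 in the first-run controls (replicates 3 and 4) and to 631 in control replicate 2. It was 822, 709 and 497 in Hsp47-deleted replicates 1, 2 and 3. Control replicate 2 thus lay within the range of the Hsp47-deleted libraries, at 9.87 times the mean of the other controls. These sums were also set against that of all other protein-coding genes outside the mitochondrial genome. The 61 genes came to 0.0151% and 0.0131% of it in the first run, and to 0.138%, 0.144%, 0.121% and 0.0746% in the second. The number of the 61 genes listed above 0 was 27 and 28 in the first run and 51 to 55 in the second. *Hist1h4d* alone made up 35.1% and 18.5% of the summed value in the first-run controls, 46.8% in control replicate 2 and 49.1%, 49.95% and 47.5% in the Hsp47-deleted libraries. Without it, the sums were 41.4 and 52.3 in control replicates 3 and 4, 336 in control replicate 2, and 419, 355 and 261 in the Hsp47-deleted libraries.

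**Figure D1:**
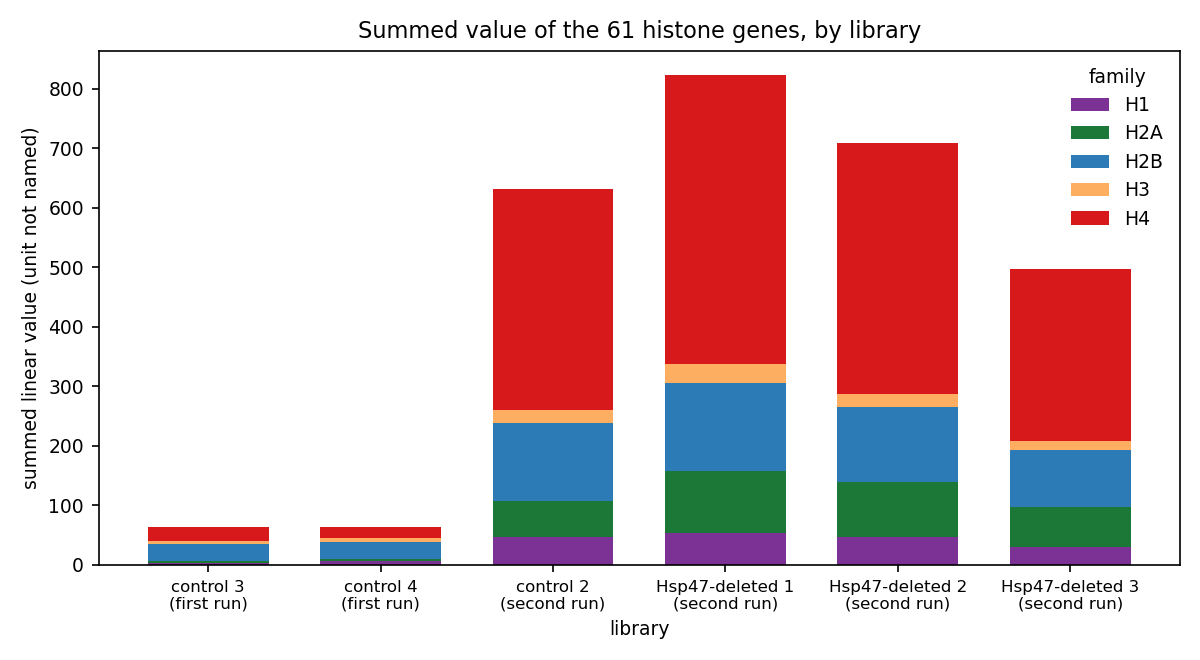
Summed linear value of the 61 histone genes in each library (unit not named), with the families stacked as colours. The 2 first-run controls reach 63.7 and 64.2, and the 4 second-run libraries, control replicate 2 among them, lie between 497 and 822.

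Each family showed this division between the runs. The H4 genes summed to 24.3 and 19.3 in the first-run controls, 370 in control replicate 2, and 485, 422 and 289 in the Hsp47-deleted libraries. That of the H2A genes was 4.54 and 2.95, then 60.6, then 104, 92.3 and 67.7. The H2B genes had the smallest ratio between the runs, with 28.6 and 29.1 in the first-run controls, 130 in control replicate 2 and 148, 127 and 95.3 in the Hsp47-deleted libraries. Control replicate 2 stood at 10.0 times the mean of the first-run controls for H1, 16.2 for H2A, 4.52 for H2B, 4.70 for H3 and 17.0 for H4. The Hsp47-deleted mean stood to control replicate 2 at a ratio from 0.918 (H1) to 1.45 (H2A). With 1 control in the second run, these ratios have no replicate check.

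Because control replicate 2 lay with the Hsp47-deleted libraries, the comparison of the groups is given first over all 6 libraries and then within the second run. Of the 61 genes, 44 passed the filter on low values, a mean linear value of at least 1 over all libraries. The 17 others were at or below a log2 value of 1.77 in every library. The genes just inside this limit were *Hist1h4f* (mean 1.05), *Hist1h2bq* (1.08) and *Hist1h3h* (1.08), and those just outside were *Hist1h3c* (0.985), *Hist1h3i* (0.839) and *Hist1h2af* (0.696). *Hist3h2ba*, *Hist1h2br* and *Hist2h2aa2* were listed at 0 in all 6 libraries. A gene that is high in 1 run only can pass on those libraries alone, so the 44 are not a sample of the 61.

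Over all 6 libraries none of the 44 genes differed between the groups at a BH-adjusted limma p under 0.05, against 37 of all 15109 tested genes (0.245%). At an unadjusted p under 0.05, 14 of the 44 (31.8%) were higher in the Hsp47-deleted libraries and 0 were lower. Of all tested genes, 14.5% were higher and 0.755% lower at that threshold. The log2 fold change was positive for 40 of the 44 genes, and for 74.5% of all tested genes. Its median was 0.93 for the 44 genes and 0.35 for all tested genes, and over all 61 genes it was 0.70. All 3 Hsp47-deleted libraries lay above all 3 controls for 8 of the 44 genes (18.2%), against a background of 18.3%, and for none did they lie below, against 1.5%. The count of 14 changed when single libraries were left out. It was 31 (70.5%) without control replicate 2, 4 (9.09%) without control replicate 3, 6 (13.6%) without control replicate 4, 4 (9.09%) without Hsp47-deleted replicate 1 and 8 (18.2%) without Hsp47-deleted replicate 2. Of all tested genes, 29.5%, 5.48%, 8.36%, 8.0% and 6.72% were higher in the same fits. Without control replicate 2, where label and run coincide, 22 of the 44 genes were called at a BH-adjusted p under 0.05, all higher, beside 16.4% of all tested genes. In bulk samples, a change in the share of cells and a change in RNA per cell cannot be told apart.

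With the sequencing run as a covariate, the difference between the groups is that between the Hsp47-deleted libraries and control replicate 2. None of the 44 genes was then called at a BH-adjusted limma p under 0.05, against 0.331% of all tested genes. At an unadjusted p under 0.05, 0 were higher, so that 0 of the 14 passed, and 2 others were lower (*Hist1h4m* and *Hist1h4k*), against 5.46% and 1.27% of all tested genes. The log2 fold change was positive for 22 genes and negative for 22, where 71.9% of all tested genes were positive, and its median was -0.014 against 0.29. It ranged from -2.89 to 1.49, and for 23 of the 44 genes it was under 0.5 in size. Control replicate 2 lay within the range of the 3 Hsp47-deleted libraries for 20 genes, below all 3 for 11 and above all 3 for 13. Of all tested genes, 41.6%, 46.7% and 11.7% fell in these classes. Both comparisons use control replicate 2 and the same Hsp47-deleted libraries.

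**Figure D2:**
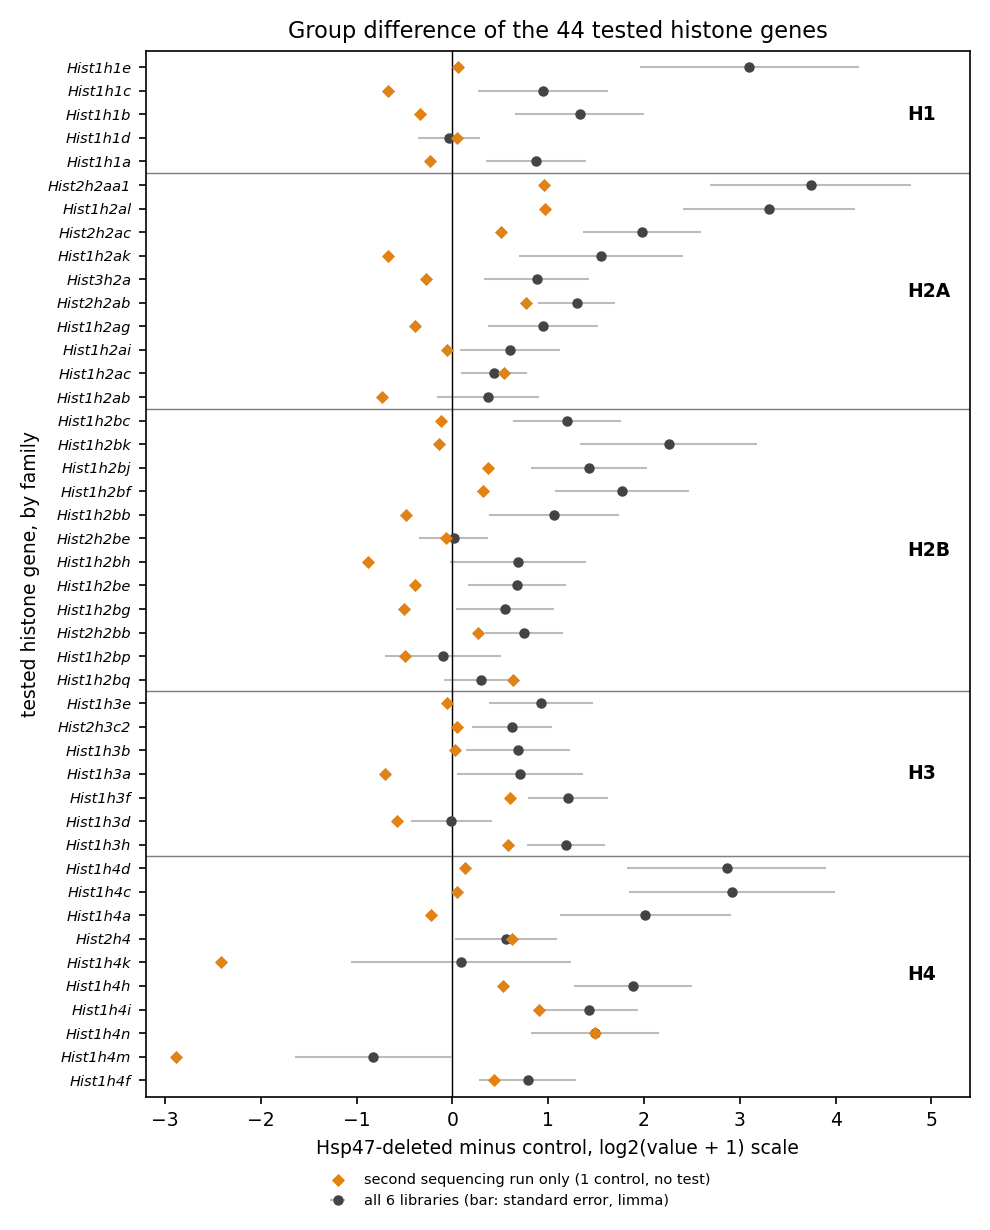
Difference between Hsp47-deleted and control libraries for each of the 44 tested histone genes, in log2 units, ordered by family and level. Grey points use all 6 libraries with limma standard errors, and orange diamonds use only the second run (1 control, no error); 40 grey points lie above 0, whereas the diamonds divide evenly, 22 on each side.

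The run term of the same model compares control replicate 2 with control replicates 3 and 4. It was tested after the levels had been seen. At a BH-adjusted limma p under 0.05, 12 of the 44 histone genes (27.3%) were higher in control replicate 2 and 0 were lower, against 3.18% and 0.768% of all tested genes. Of the 12, 6 were listed at 0 in both first-run controls, so they passed the filter only through second-run libraries. The other 6 were above 0 in a first-run control. Linear first-run values were 0 and 0.146 for *Hist1h1e*, 0.839 and 0 for *Hist1h2bk*, 0.450 and 0 for *Hist2h2ac*, and 0.477 and 1.37 for *Hist1h4c*. These genes too passed the filter only with the second-run libraries. Only *Hist1h4d* (22.3 and 11.8) and *Hist1h1c* (1.18 and 2.49) were above 1 in both first-run controls. The 12 include *Hist1h4m*, which was high in control replicate 2 and not in the other second-run libraries. At an unadjusted p under 0.05, 26 (59.1%) were higher and 0 lower, beside 17.7% of all genes higher. The median run difference was 1.66 on the log2 scale for the 44 genes and 0.11 for all tested genes. It was 1.52 for the 32 genes with a value above 0 in a first-run control. These 32 still include genes, such as *Hist1h1e*, that passed the filter only with the second-run libraries. Over all 61 genes, without the filter, the median was 0.99, against 0 for all listed genes. All 4 second-run libraries lay above both first-run controls for 31 of the 44 genes (70.5%), against 35.0% of all tested genes, and for none of the 44 did they lie below, against 9.92%. Among all 61 genes, 12 (19.7%) were listed at 0 in both first-run controls and above 0 in all 4 second-run libraries, as were 1.97% of all listed genes. The term rests on 1 library against 2. The 12 calls became 3 (6.82%) without control replicate 3, 0 without control replicate 4, 6 (13.6%) without Hsp47-deleted replicate 2 and 18 (40.9%) without Hsp47-deleted replicate 3. The calls over all tested genes moved with them, with 0.404%, 0.165%, 0.788% and 9.73% higher in these fits. Without control replicate 4, where the term rests on 1 library against 1, the median run difference was 1.91 for the 44 genes. For all tested genes it was 0.21.

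**Figure D3:**
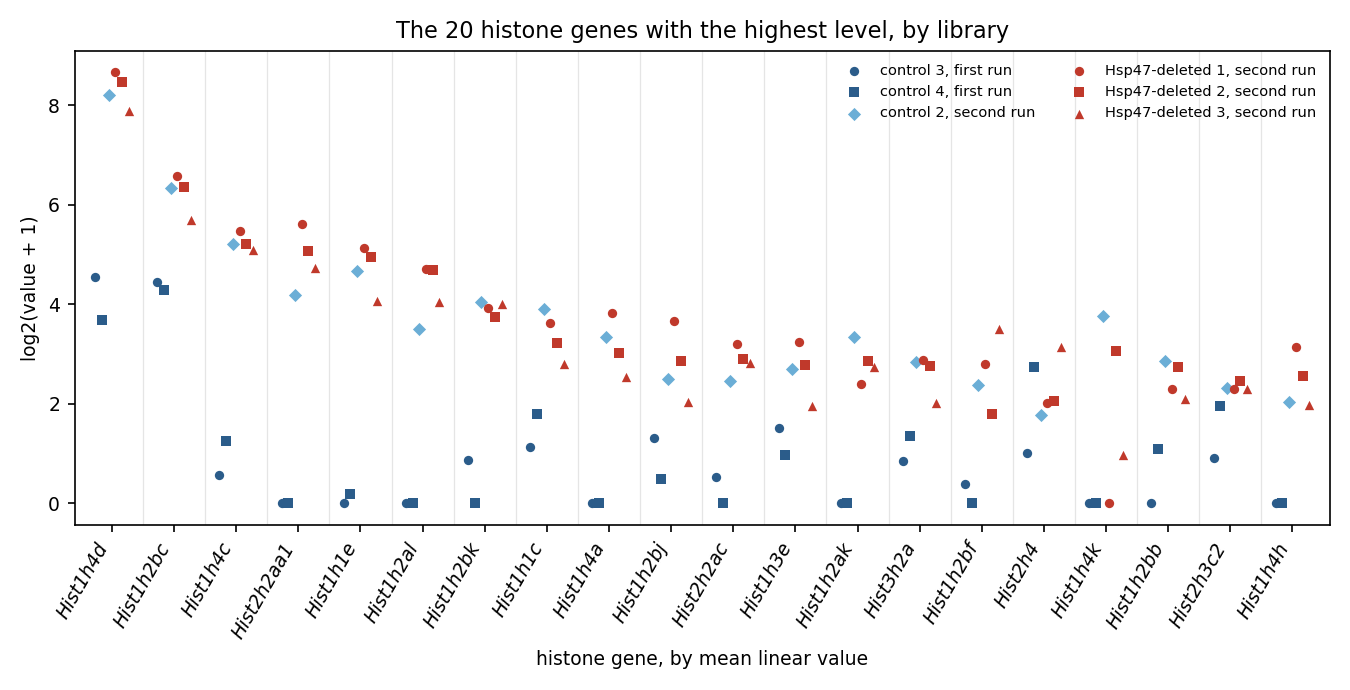
Value of the 20 histone genes with the highest mean linear value in each of the 6 libraries, on the log2(value + 1) scale. Dark blue marks the first-run controls, light blue control replicate 2 and red the Hsp47-deleted libraries; for 18 of the 20 genes every second-run library lies above both dark blue points, the exceptions being *Hist2h4* and *Hist1h4k*.

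Among the H4 genes, *Hist1h4d* (ENSMUSG00000061482) was listed at 4.54 and 3.68 in control replicates 3 and 4, at 8.21 in control replicate 2 and at 8.66, 8.47 and 7.89 in Hsp47-deleted replicates 1, 2 and 3. Control replicate 2 stood within the Hsp47-deleted range and far above the other controls. Over all libraries the log2 fold change was 2.86 (SE 1.04, limma, BH-adjusted p = 0.298). Against control replicate 2 it was 0.13, and the run difference was 4.10 (SE 0.49, limma, BH-adjusted p = 0.0107). *Hist1h4c* had the same shape, at 0.56 and 1.24 in the first run, 5.21 in control replicate 2 and 5.47, 5.20 and 5.10 in the Hsp47-deleted libraries. Its run difference was 4.30 (SE 0.44, limma, BH-adjusted p = 0.00617), the smallest adjusted p among the 44 genes. *Hist1h4a* and *Hist1h4h* were listed at 0 in both first-run controls, at 3.35 and 2.04 in control replicate 2, and from 2.54 to 3.82 and from 1.98 to 3.15 in the Hsp47-deleted libraries.

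Some H4 genes had no such pattern. *Hist2h4* was listed at 1.01 and 2.75 in control replicates 3 and 4, at 1.78 in control replicate 2 and at 2.01, 2.06 and 3.14 in the Hsp47-deleted libraries, so the runs overlapped. *Hist1h4m* was listed at 3.09 in control replicate 2, at 0.61 in Hsp47-deleted replicate 3 and at 0 in the other 4 libraries. *Hist1h4k* was at 3.76 in control replicate 2, at 3.06 and 0.98 in Hsp47-deleted replicates 2 and 3, and at 0 in the other 3 libraries. These are the 2 genes that were lower against control replicate 2 at an unadjusted p under 0.05 (limma, BH-adjusted p = 0.0882 and 0.732). Both have near-identical copies among the H4 genes, so how reads were divided between copies bears on their values. *Hist1h4n*, at 0 in all 3 controls and in Hsp47-deleted replicate 3, was at 2.86 and 1.61 in Hsp47-deleted replicates 1 and 2.

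Among the H2A genes, *Hist2h2aa1* (ENSMUSG00000063954) had the largest log2 fold change of the 44 genes over all libraries, 3.74 (SE 1.05, limma, BH-adjusted p = 0.274). It was listed at 0 in control replicates 3 and 4, at 4.18 in control replicate 2 and at 5.61, 5.07 and 4.72 in the Hsp47-deleted libraries. *Hist1h2al* (ENSMUSG00000091383), with the smallest unadjusted p of the 44, was also at 0 in both first-run controls. It stood at 3.51 in control replicate 2 and at 4.70, 4.68 and 4.04 in the Hsp47-deleted libraries (log2 fold change 3.31, SE 0.90, limma, BH-adjusted p = 0.263). In both genes control replicate 2 lay below all 3 Hsp47-deleted libraries, by 0.95 and 0.97 on average. With run as a covariate neither difference passed (limma, BH-adjusted p = 0.732 for each). *Hist2h2aa1* has a copy, *Hist2h2aa2*, whose transcript is 100% identical over their shared length and which was listed at 0 in every library, and GENCODE release M21 uses the names of this pair the other way round. The values of the pair cannot be told apart. *Hist1h2al* is in turn near-identical to other H2A genes (highest identity 99.41%) and is linked to *Hist2h2aa1* through such copies, so reads may be shared among them and the 2 genes are not independent.

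*Hist2h2ac* was listed at 0.54 and 0 in control replicates 3 and 4, 2.46 in control replicate 2 and 3.21, 2.89 and 2.82 in the Hsp47-deleted libraries. The gene facing it across the promoter printed above, *Hist2h2be* (H2B), had 1.44 and 2.30 in the first run, 1.99 in control replicate 2 and 1.79, 2.20 and 1.77 in the Hsp47-deleted libraries. Its run difference was 0.12 (SE 0.51, limma, BH-adjusted p = 0.898), whereas that of *Hist2h2ac* was 2.20 (SE 0.45, limma, BH-adjusted p = 0.046). The difference between the 2 genes was not itself tested. The annotated *Hist2h2be* transcript has 2620 bases and a poly(A) signal near its end, and that of *Hist2h2ac* has 520 bases and ends 57 bases after the hairpin. A similar contrast was seen in the pair *Hist1h2ac* and *Hist1h2bc*, with run differences of -0.16 and 1.97. In the pair *Hist1h2ag* and *Hist1h2bj* the run differences were 2.00 and 1.58. The other 5 head-to-head pairs had a gene under the filter.

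Of the other H2A genes, *Hist1h2ak* was at 0 in both first-run controls, at 3.33 in control replicate 2 and at 2.39, 2.86 and 2.73 in the Hsp47-deleted libraries. *Hist2h2ab* was at 0.73 and 0 in the first run, at 1.15 in control replicate 2 and at 1.65, 1.88 and 2.25 in the Hsp47-deleted libraries. *Hist3h2a*, the only tested gene of the Hist3 cluster, had 0.84 and 1.35, then 2.83, then 2.89, 2.75 and 2.01. Its exons overlap those of *Trim17* on the same strand by 708 bases, so reads of the 2 genes may be mixed. *Hist1h2ac* had no difference between the runs, at 1.44 and 0.77 in the first-run controls, 0.95 in control replicate 2 and 1.47, 1.70 and 1.31 in the Hsp47-deleted libraries.

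Among the H2B genes, *Hist1h2bc* (ENSMUSG00000018102) was listed at 4.44 and 4.28 in control replicates 3 and 4, at 6.33 in control replicate 2 and at 6.58, 6.36 and 5.70 in the Hsp47-deleted libraries. The log2 fold change was 1.20 over all libraries (SE 0.57, limma, BH-adjusted p = 0.352) and -0.12 against control replicate 2. *Hist1h2bk* was at 0.88 and 0 in the first run and at 4.04, 3.93, 3.75 and 4.01 in the second, a run difference of 3.60 (SE 0.48, limma, BH-adjusted p = 0.0148). *Hist1h2bj* and *Hist1h2bf* ranged from 0 to 1.32 in the first run and from 1.79 to 3.67 in the second. *Hist1h2bb* was at 0 and 1.09 in the first run and at 2.86, 2.30, 2.74 and 2.09 in the second. *Hist1h2bp* had the opposite sign over all libraries (log2 fold change -0.10, limma, BH-adjusted p = 0.951), with values from 0 to 2.34 in the Hsp47-deleted libraries.

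The tested H1 genes, whose products bind linker DNA, followed the same division apart from *Hist1h1d*. *Hist1h1e* (ENSMUSG00000051627) was listed at 0 and 0.20 in control replicates 3 and 4, at 4.66 in control replicate 2 and at 5.13, 4.95 and 4.07 in the Hsp47-deleted libraries. Its run difference, 4.56 (SE 0.52, limma, BH-adjusted p = 0.00946), was the largest of the 44 genes, and its difference from control replicate 2 was 0.057. Its exons share 450 bases on the same strand with exons annotated to *Hist1h2be*, so reads of the 2 genes may be mixed. *Hist1h1c* had 1.13 and 1.80 in the first run, 3.90 in control replicate 2 and 3.63, 3.23 and 2.80 in the Hsp47-deleted libraries (run difference 2.43, SE 0.51, limma, BH-adjusted p = 0.0485). *Hist1h1b* was at 0 in both first-run controls and at 2.50, 2.19, 1.92 and 2.37 in the second run. *Hist1h1d*, whose annotated transcript is the longest of the 61 at 7425 bases, had 1.39 and 1.74 in the first-run controls, 1.45 in control replicate 2 and 1.29, 1.77 and 1.42 in the Hsp47-deleted libraries. The libraries thus did not divide by run or group. *Hist1h1t*, the testis-specific H1 gene, was under the filter in these cells.

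Of the 7 tested H3 genes none was called by the run term, and 2 had an unadjusted limma p under 0.05. *Hist1h3e* was listed at 1.51 and 0.98 in control replicates 3 and 4, at 2.71 in control replicate 2 and at 3.25, 2.77 and 1.95 in the Hsp47-deleted libraries. *Hist2h3c2* was at 0.92 and 1.95 in the first run, and at 2.31, 2.30, 2.45 and 2.29 in the second, where the 4 libraries lay close together. *Hist1h3f* and *Hist1h3h* were at most 0.14 in the first-run controls, at 0.98 and 0.91 in control replicate 2, and from 1.07 to 1.96 in the Hsp47-deleted libraries. *Hist1h3d* did not separate the runs or the groups without overlap, with controls between 0.42 and 1.60 and Hsp47-deleted libraries between 0.58 and 1.31.

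The run difference was compared between genes by transcript form. Its median was 2.04 for the 15 tested genes whose transcript ends near the hairpin, 1.58 for the 17 whose transcript continues past it and 1.32 for the 12 with no hairpin annotated. For the 8 tested genes with a poly(A) signal near the annotated end it was 1.09, and for the 36 others 1.82. The values ranged from 0.00 to 4.18 for transcripts that end near the hairpin, from -0.16 to 4.56 for those that continue and from -0.50 to 3.76 for those without one. The classes thus overlapped widely, and they were not tested against each other. The longer transcripts also differ in base composition, with a median GC content of 49.6% against 60.4% for those that end near the hairpin. Among tested genes that are not histone members, the run difference was larger at higher GC content, from a median of -0.27 at 40% to 45% GC to 0.64 at 55% to 60% and 0.91 above 60%. In those last 2 bins the histone genes had medians of 2.31 (9 genes) and 2.06 (16 genes). The 11 histone genes at 50% GC or less had a median of 1.59, where other genes had medians from -0.27 to -0.09. After the trends with GC content and length were removed within each library, 5 of the 44 genes (11.4%) were called by the run term, beside 1.27% of all genes that were called higher. The median run difference of the 44 genes was then 1.15, and that of all genes -0.011. Of the 44, 12 were listed at 0 in both first-run controls. These and some others passed the filter only with the second-run libraries, which by itself makes their run difference positive. No values by GC content were computed without the filter, so the comparison with other genes has this limit. The 17 tested genes that matched a near-identical gene over most of their own transcript had a median run difference of 1.66. The 27 others had the same median. Some of these others, such as *Hist1h2bc*, *Hist1h4c* and *Hist2h2ac*, are still linked to other histone genes through near-identical copies. The split therefore does not separate genes with copies from genes without them.

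**Figure D4:**
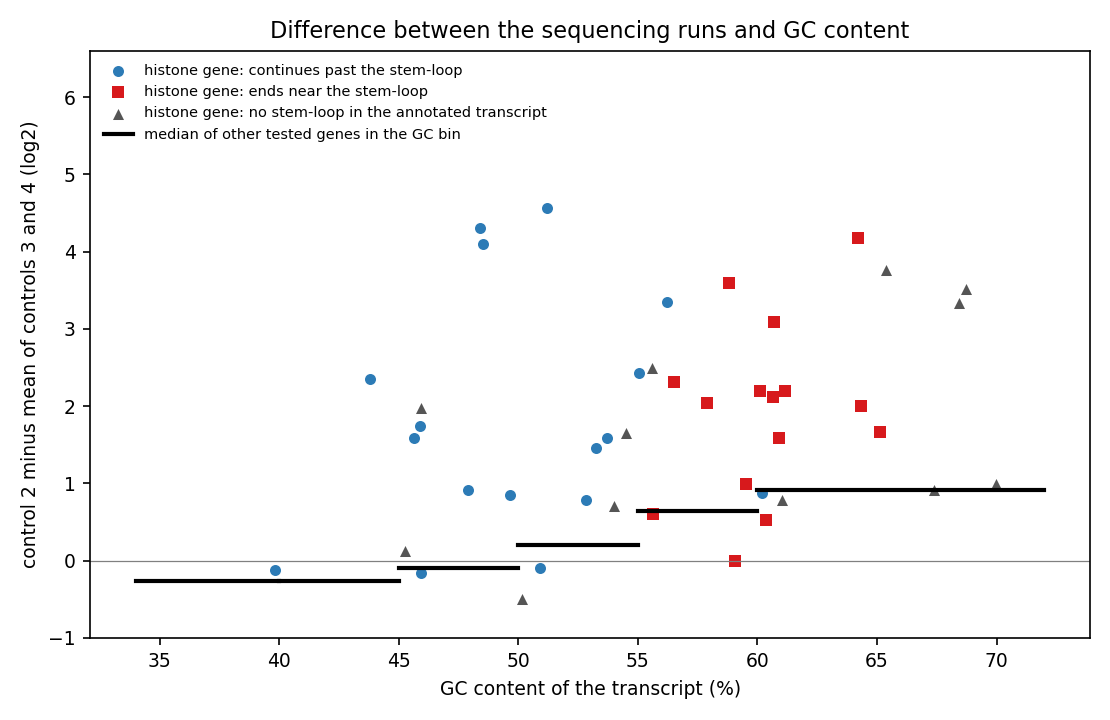
Run difference (control replicate 2 minus the mean of control replicates 3 and 4, log2) of the 44 tested histone genes against the GC content of their transcripts, with symbols for the transcript form. Black bars give the median of the other tested genes in each GC bin, rising from -0.27 to 0.91, and most of the histone genes lie above the bar of their bin. Some of the histone genes passed the filter only with the second-run libraries, which by itself makes their run difference positive.

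Genes that work with the histone genes were read from lists chosen for their known roles, to see whether they divided in the same way. Replacement and variant histones, 10 of the list of 15 being tested, had 0 genes called between the groups at a BH-adjusted limma p under 0.05 and 5 of 10 higher at an unadjusted p under 0.05, beside 14.5% of all tested genes. *H2afx*, the variant phosphorylated at DNA breaks, whose mRNA can end in a stem-loop, was at 1.95 and 2.27 in control replicates 3 and 4, 3.90 in control replicate 2 and 4.57, 4.84 and 5.04 in the Hsp47-deleted libraries (log2 fold change 2.11, SE 0.52, limma, BH-adjusted p = 0.226). *H3f3b*, a source of the replacement histone H3.3, was at 6.61 and 6.45, then 7.26, then 7.55, 7.82 and 8.47. *H1foo*, the oocyte linker histone, lay between 0.37 and 1.43 in the controls and between 1.77 and 2.32 in the Hsp47-deleted group. *H2afz* was at 7.78, 8.04 and 7.61 in the controls and at 8.16, 8.87 and 9.75 in the Hsp47-deleted libraries, with control replicate 2 the lowest of the 6. The median run difference of the 10 genes was 1.09, with 0 called by the run term at a BH-adjusted limma p under 0.05 and 4 higher at an unadjusted p under 0.05.

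Genes for making and trimming histone mRNA had 31 tested members, of which 0 were called between the groups and 5 were higher at an unadjusted p under 0.05 (16.1%, near the 14.5% of all tested genes). *Slbp*, which encodes the protein that binds the hairpin, was at 5.22 and 5.46 in the first-run controls, 5.74 in control replicate 2 and 5.80, 6.16 and 6.18 in the Hsp47-deleted libraries (log2 fold change 0.57, SE 0.29, limma, BH-adjusted p = 0.376). *Npat*, the coactivator of histone gene transcription, lay between 3.02 and 3.77 in the controls and between 2.83 and 4.38 in the Hsp47-deleted group. *Lsm10*, a U7 snRNP protein, was at 0 in both first-run controls, at 1.41 in control replicate 2 and at 3.10, 2.88 and 1.56 in the Hsp47-deleted libraries. *Upf1*, a helicase needed for histone mRNA decay, was at 2.33, 2.51 and 2.72 in the controls and at 3.45, 3.46 and 3.70 in the Hsp47-deleted libraries. The median run difference of this list was 0.25, with 0 called by limma and, at an unadjusted p under 0.05, 2 higher and 2 lower.

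Histone chaperones and assembly factors had 21 tested members with 0 called and 1 higher at an unadjusted p under 0.05, *Cabin1*, a subunit of the HIRA complex, at 1.59, 2.19 and 2.78 in the controls and 3.38, 3.47 and 2.89 in the Hsp47-deleted libraries. *Daxx*, an H3.3 chaperone, was next by p, at 2.75 to 4.27 in the controls and 4.34 to 4.83 in the Hsp47-deleted libraries. S phase and proliferation genes had 31 tested members with 0 called and 3 higher at that threshold. The shares of the chaperones and of the S phase genes, 4.76% and 9.68%, lay under the 14.5% of all tested genes. *Cdc20*, an activator of the anaphase-promoting complex, was at 0.91, 1.05 and 1.48 in the controls and at 2.09, 2.01 and 2.20 in the Hsp47-deleted libraries. *Pold1*, the catalytic subunit of DNA polymerase delta, was at 1.47 and 0.94 in the first run, 2.65 in control replicate 2 and 3.76, 3.01 and 2.65 in the Hsp47-deleted libraries. The median run difference was -0.045 for the chaperones and 0.25 for the S phase genes, beside 1.66 for the histone genes, and 0 genes of either list were called by the run term (limma). At an unadjusted p under 0.05, 0 chaperones were higher and 2 lower, and 4 S phase genes were higher and 1 lower. The difference between lists was not tested. *H1f0* and a list of 13 other RNAs without a poly(A) tail were not analysed here, since no row carries those symbols.

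**Figure D5:**
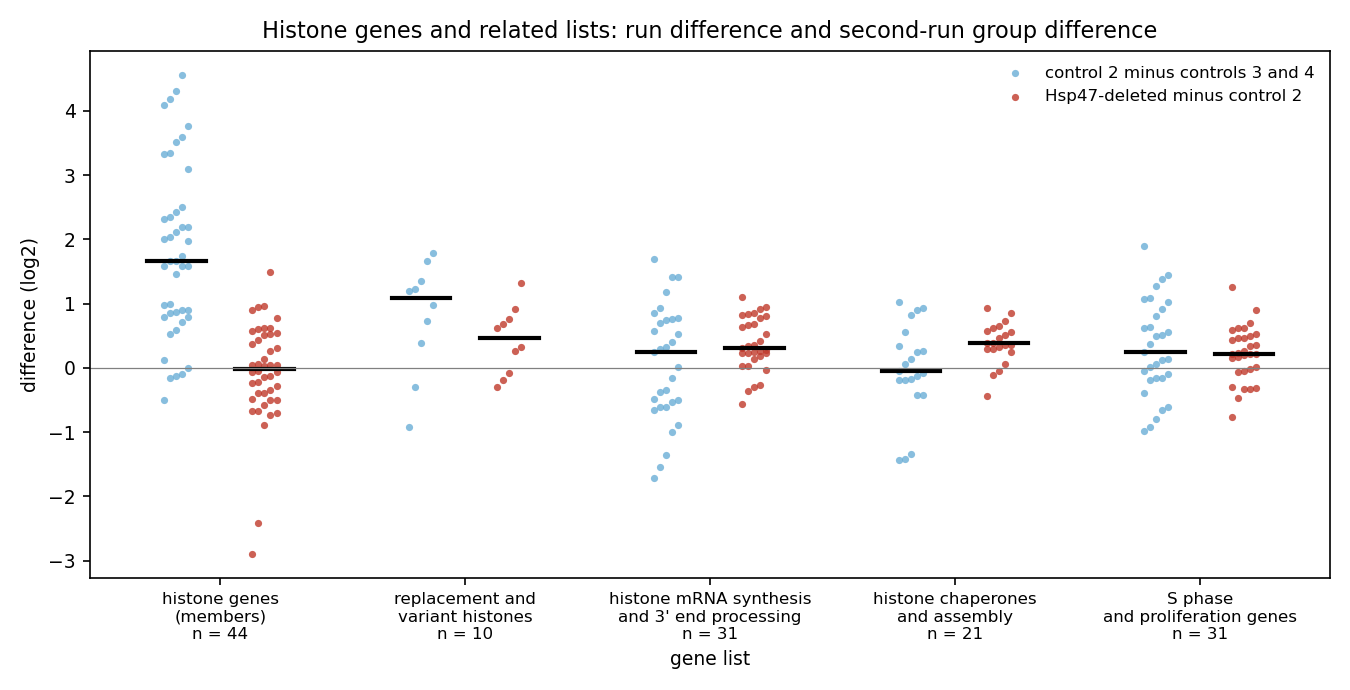
Run difference (light blue, control replicate 2 minus the mean of control replicates 3 and 4) and second-run group difference (red, Hsp47-deleted minus control replicate 2) of each tested gene in the histone set and 4 related lists, in log2 units with medians as black bars. Both differences contain control replicate 2; the run medians are 1.66 for the histone genes and from -0.045 to 1.09 for the lists, and the red medians lie between -0.014 and 0.47.

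Summed markers of some cell types also differed between the runs. *Postn*, the gene that drives the Cre, was at 5.87, 5.86 and 6.12 in the controls and at 10.22, 10.50 and 10.36 in the Hsp47-deleted group. Its value in control replicate 2 stood 0.26 above the mean of the first-run controls. All 10 fibroblast markers were above 0 in every library. Their linear values summed to 10029 and 9386 in the first-run controls, 12729 in control replicate 2 and from 15333 to 16970 in the Hsp47-deleted libraries. For 7 of the 10, all 4 second-run libraries lay above both first-run controls, beside 35.0% of all tested genes. Summed linear values of 5 cardiomyocyte markers came to 71.4 and 26.2 in the first-run controls, 152 in control replicate 2 and from 117 to 175 in the Hsp47-deleted libraries. For 5 endothelial markers it was 63.7 and 37.3, then 124, then from 87.6 to 135. For 6 leukocyte markers it was 30.4 and 66.8, then 85.8, then from 92.2 to 118, with *Ptprc*, the gene of the pan-leukocyte antigen CD45, at 0 in all 6 libraries. For 3 erythroid markers it was 38.3 and 4.42, then 101, then from 31.6 to 53.5, so the runs overlapped. All 4 second-run libraries lay above both first-run controls for 4 of 5 tested endothelial and 4 of 5 tested leukocyte markers. The exceptions were *Vwf* (3.47 and 4.00 in the first run, 3.11 in control replicate 2) and *Cd68* (4.72 and 6.01, then 4.33). The sums of 4 mural markers, 157 and 283 in the first run and from 103 to 207 in the second, also overlapped between the runs. So did those of 3 Schwann cell markers, from 1.35 to 3.32. The part of these cell types, of GC content and of the run itself in the histone values was not tested, and for the comparison of all controls with the Hsp47-deleted libraries run and label cannot be told apart except through control replicate 2.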

How the data were processed

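RNA-seq was performed on total RNA of EGFP+ cells sorted from 3 control and 3 Hsp47-deleted samples. The authors deposited 1 table of log2 values, log2(value + 1), covering 28987 genes in 6 library columns, beside their group means, fold changes and p-values, none of which was used. The submitters' processing notes name kallisto and the build mm10, and the paper names AltAnalyze. The linear unit is not named, and the depth per library is unknown. The linear values summed to between 690499 and 855404 per library.

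Genes with a mean linear value of at least 1 (15109) entered a limma fit (version 3.58.1, R 4.3.3; eBayes with trend) of group, with the deposited pseudocount of 1 and Benjamini-Hochberg adjustment over all of them. The fit was tested on simulated data. Where run was added, its term was also tested. The most identical values above 0 in any pair of libraries was 0. Transcripts were read from GENCODE release M21, near-identical copies were found with blastn 2.17.0 at 95% identity over 80% of a transcript, and promoters came from RefSeq (GRCm38.p6).

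The histone genes and gene lists were chosen with earlier results of these data known. Genes were named by rule, namely *Serpinh1*, the 20 histone genes with the highest mean, the 5 with the smallest p in each direction, the 2 highest of each family, and the 2 genes with the smallest p of each related list together with *Slbp*, *Npat*, *H2afz*, *H3f3b* and *H2afx*. Any other gene named was picked with its values in view. Alternatives were run as a covariate, the second run alone, a replicate block, other filters, pseudocounts (0.1 and 5), scalings and limma settings (statmod 1.5.0), and leaving out each library. Removal of GC and length trends (lowess, span 0.3) and grouping of near-identical copies were added after the data were seen.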

Additional observations from a re-analysis of the deposited data

How the results depend on the processing

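The whole table gave 37 genes called between the groups, and 16 with a pseudocount of 0.1, 17 with quantile normalization, 18 after centring on the median, 16 after rescaling to protein-coding genes, 16 after removal of GC and length trends, and 8 to 2768 when a library was left out (2768 without control replicate 2). The number of histone genes called stayed at 0 under each alternative that kept all 6 libraries and ranged from 0 to 22 when a library was left out. The related lists then ranged from 0 to 5 (variants), 0 to 4 (processing), 0 to 1 (chaperones) and 0 to 5 (S phase). The number of histone genes at an unadjusted p under 0.05, 14 and all higher, was 2 with run as a covariate, both lower and neither among the 14. It was 6 of the 9 tested with a mean of at least 5 (16.4% of all genes higher), 6 with quantile normalization (4.57%), 7 after centring (4.73%), 8 after removal of GC and length trends (7 higher and 1 lower, against 3.96% and 3.47%), and 4 to 31 when a library was left out. After centring, 714 of all genes were higher and 526 lower at that threshold, against 2188 and 114 as deposited.

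The median log2 fold change of the histone genes, 0.93, became -0.014 with run as a covariate and in the second run alone. It was 2.86 when only the 9 genes past a mean of 5 were kept, 1.90 with a pseudocount of 0.1, and 0.73 to 1.48 when a library was left out. Removal of GC and length trends gave 0.34, centring 0.52, quantile normalization 0.52, rescaling 0.66 and a pseudocount of 5 gave 0.39. The medians of all genes were then -0.0045, -0.060, -0.048, 0.011 and 0.21. Relative to all tested genes the median of 0.93 was 0.58, and became -0.30 with run as a covariate and in the second run alone. This relative median was 2.48 over those 9 genes, 1.47 with a pseudocount of 0.1, and 0.38 to 1.09 when a library was left out. The 12 histone genes called by the run term became 5 (11.4%) after removal of GC and length trends. The count was 7 (15.9%) with a pseudocount of 5 and 6 of the 61 (9.84%) without a filter. The shares of all genes called higher were then 1.27%, 1.97% and 1.76%. Leaving out an Hsp47-deleted library gave 6 to 18 histone genes, beside 0.788% to 9.73% of all genes. The fits without a first-run control, with fewer calls, are given above. Over the whole table the run term called 596 genes in either direction. That became 266 after removal of the trends, 368 with a pseudocount of 5 and 556 without a filter. Leaving out an Hsp47-deleted library gave 135 to 2096.

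Replicate numbers 2 and 3 occur in both groups. Same-numbered libraries correlated at 0.16 and 0.23 in their deviations from the group means, and no label says that a number marks a shared animal or day. With the replicate block, 0 genes and 0 histone genes were called, and the median of the histone genes was 0.63 (0.22 relative to all genes). At an unadjusted p under 0.05, 3 histone genes (6.82%) were higher and 0 lower, beside 9.64% and 0.582% of all genes. The sign turned for *Hist1h1d* (0.17), *Hist1h2bp* (0.022) and *Serpinh1* (-0.28).

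Of the 44 tested histone genes, 20 turned sign with run as a covariate. Among the genes named by rule, the turned values were *Hist1h1c* -0.68, *Hist1h1d* 0.042, *Hist1h2ak* -0.67, *Hist1h2bb* -0.48, *Hist1h2bc* -0.12, *Hist1h2bk* -0.14, *Hist1h3e* -0.052, *Hist1h4a* -0.22, *Hist1h4k* -2.42, *Hist3h2a* -0.28 and *Serpinh1* -0.87. A pseudocount of 0.1 gave *Hist1h3d* 0.056, and one of 5 gave *Hist1h2bp* 0.024 and *Hist1h4k* -0.084. Quantile normalization gave *Hist1h4k* -0.25, *Npat* -0.37 and *Serpinh1* -0.27, centring -0.32, -0.35 and -0.34, and rescaling -0.067, -0.32 and -0.34. Removal of GC and length trends gave *Hist1h4k* -1.10, *Hist2h3c2* -0.23 and *Serpinh1* -0.57. When a library was left out, values on both sides of 0 were seen for *Hist1h1d* (-0.17 to 0.071), *Hist1h2bp* (-0.70 to 0.47), *Hist1h3d* (-0.32 to 0.27), *Hist1h4k* (-0.77 to 1.35), *Hist1h4m* (-1.34 to 0.20), *Npat* (-0.41 to 0.37) and *Serpinh1* (-0.21 to 0.54). Without control replicate 2, 25 of the genes named by rule passed a BH-adjusted limma p under 0.05, in a fit that called 18.3% of all tested genes. These genes were named partly for a small p or a high level in the same data, so the count is not a result about them. The cause of these changes was not tested. A grouping by identical proteins was not run. With no counts, what depth limits is unknown.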
